A study of Mus musculus with 14 samples.

Results

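The 150 genes described here had lower RNA levels in wild-type follicular B cells at 0h and 6h of culture with BAFF than at 27h. They were chosen by their own values in the 6 wild-type (wt) libraries, as mean counts per 1000000 gene counts of a library (CPM). Of 21303 protein-coding gene IDs, 8518 had a wt mean of at least 10 CPM at 27h, and 6257 of these also had a 6h mean below 1.5 times the 0h mean. The members are the 150 of these with the highest score, the log2 ratio of the 27h mean plus 1 to the larger of the 0h and 6h means plus 1. All 150 passed the filter on low counts. What chose them, the wt values at 0h, 6h and 27h, is given as a description with no test.

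The cells were follicular B cells from the spleen of C57BL/6 mice, separated with a bead kit and grown in medium containing 50 ng/ml BAFF. The groups were wt at 0h, 6h and 27h, cells lacking c-Rel (crel-/-, written cko) at 0h and 6h, and cells lacking both RelB and c-Rel (relb-/-crel-/-, written dbko) at 0h and 6h. The 7 groups held 2 libraries each (n = 2), so 14 in all, and 27h was taken in wt alone. Both knockouts thus carry crel-/- by label, dbko differs from cko by relb-/-, and neither a Cre nor pooling of animals is stated. The labels do not say that replicates came from separate mice, so p-values measure the spread between these libraries, which may be technical. The fit on all 14 libraries shares its estimate of a gene's spread between groups. A split between the dbko replicates therefore also enters its tests of cko and wt. No culture without BAFF was analysed here, so effects of BAFF and of the hours in culture cannot be told apart.

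BAFF is a cytokine of the TNF family that keeps mature B cells alive, and its receptor feeds into NF-kB, the transcription factor family to which RelB and c-Rel belong. Resting follicular B cells are out of the cell cycle. On entry, cyclins of the D and E type and their kinases release E2F factors, which switch on genes for origin licensing, nucleotide supply and DNA synthesis, and genes of mitosis follow with E2F, B-MYB and NF-Y at their promoters.

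The total of gene counts per library lay between 10497802 and 11888765, and 15438 to 16490 genes were detected. Rel, the gene of c-Rel, had 567 to 702.2 CPM in the wt libraries of 0h and 6h, 46.18 to 115 in cko and 39.32 to 66.19 in dbko. Relb was at 104.1 to 168.7 CPM in wt at 0h and 6h, at 148.2 to 176.6 in cko and at 52.05 to 95.36 in dbko. Transcripts of Rel were lower but not at 0 in both knockouts, and those of Relb were lower than in wt in dbko alone, again not at 0; which exons were deleted was not tested. Summed levels of 7 B cell markers were 5591 to 9506 CPM in every library. The dbko libraries stood apart from the others in markers of some other spleen cells, and in part between their replicates. Summed levels of 6 erythroid markers were 1006 and 412.3 CPM in dbko replicates 1 and 2 at 0h and 228.8 and 87.61 at 6h, 40.87 and 40.66 in cko at 0h, and at most 7.781 in wt. The 15 macrophage and monocyte markers summed to 294.3 and 157.4 CPM in dbko at 0h and 349.4 and 115.1 at 6h, against 189.5 and 193.3 in wt at 0h, 44.17 and 42.86 in wt at 6h and 31.5 to 44.99 in cko, so dbko 0h replicate 2 lay below wt at 0h. The 7 dendritic cell markers summed to 85.18 and 79.4 CPM in dbko at 0h and 28.21 to 29.19 in the other 0h libraries. At 6h they summed to 40.34 CPM in dbko replicate 1 and 22.85 in replicate 2. The 9 T and NK cell markers summed to 15.6 and 20.91 CPM in dbko at 0h, against 4.156 to 6.374. Cd8a alone gave 14.3 and 18.97 CPM of these dbko sums, and each other marker was at most 0.4614. The T and NK sum in dbko at 0h thus rests on Cd8a. In bulk RNA, fewer cells of a type and less RNA per cell cannot be told apart.

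By the roles assigned to them after the members were seen, 70 of the 150 genes belong to the cell cycle: 19 to DNA replication, 10 to nucleotide supply and chromatin copying, 16 to DNA repair and checkpoints, 6 to the step from G1 to S and 19 to mitosis. The other 80 comprise 7 genes of redox and metal handling, 17 of metabolism, 14 of immune surface, signalling and defence, 5 of endoplasmic reticulum and vesicle traffic, 7 of the cytoskeleton and 30 of other or mixed roles.

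The promoters of the cell cycle members held the E2F words more often than those of the other members. RefSeq promoter windows (GRCm38.p6, 250 bases before to 50 after a start) matched 116 members with 145 promoters, of which 63 belonged to cell cycle members. Either of the E2F words TTTCCCGC and TTTGGCGC, searched on both strands, was in 19% of the cell cycle promoters and in 3.66% of those of the other members, against 3.14% of promoters of the genes that met both level limits without being members and 1.56% of all 32851 promoters. CCAAT, the word bound by NF-Y, was in 57.1% of cell cycle promoters, 47.6% of those of other members and 37.4% of all. GGGACTTTC, 9 letters of a kB site, was in 0 of the 145 windows and in 0.353% of all promoters. A word this rare gives few or no matches in 145 windows, so no conclusion is drawn from the 0. A match is a description of letters and not a site in use. Stretches before a RefSeq start, outside annotated exons, are shown for a pair of members because they hold an E2F word, in capitals with any CCAAT in either orientation: Cdc6 (chr11:98907982-98908150, plus strand), with GCGGGAAA 138 bases before the RefSeq start, and Mcm5 (chr8:75109259-75109508, plus strand), with GCGCCAAA 149 bases before it. The RefSeq start of Cdc6 lies 350 bases after the first base of the gene in GENCODE M21, so this stretch is inside the gene as annotated there, while that of Mcm5 is ahead of the gene.
Cdc6: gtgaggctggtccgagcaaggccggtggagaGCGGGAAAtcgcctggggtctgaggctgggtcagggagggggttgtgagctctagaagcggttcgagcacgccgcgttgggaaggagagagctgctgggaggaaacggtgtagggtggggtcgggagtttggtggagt
Mcm5: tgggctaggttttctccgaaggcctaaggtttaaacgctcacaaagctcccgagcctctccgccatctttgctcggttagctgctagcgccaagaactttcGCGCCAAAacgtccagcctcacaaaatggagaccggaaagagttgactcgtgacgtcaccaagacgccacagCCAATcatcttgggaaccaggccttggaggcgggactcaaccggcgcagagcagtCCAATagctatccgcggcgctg

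In wt, the rule chose genes that were 2.06 to 9.96 times higher at 27h than at the higher earlier time on its scale, a score of 1.04 to 3.32 with a median of 1.31. Both 27h libraries lay above all 4 earlier wt libraries in 150 of 150 members, as they did in 35.4% of all genes tested, and 89 members had a 6h mean below the 0h mean. The last members inside were H6pd (score 1.0482) and Mrpl42 (1.0434), and the first genes outside were Mrps25 (1.0381) and Psrc1 (1.0372), so the scores run on without a gap across the boundary. Per kb of exon, wt levels at 27h were highest for the tubulin Tubb5 (449 CPM per kb), the endoplasmic reticulum chaperone Hsp90b1 (311) and Hmox1 (298), and low for Cdc6 (5.43) and Mcm10 (4.17). Redox and metal genes had the highest median score of the roles at 1.66, and endoplasmic reticulum genes the lowest at 1.17.

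**Figure D1:**
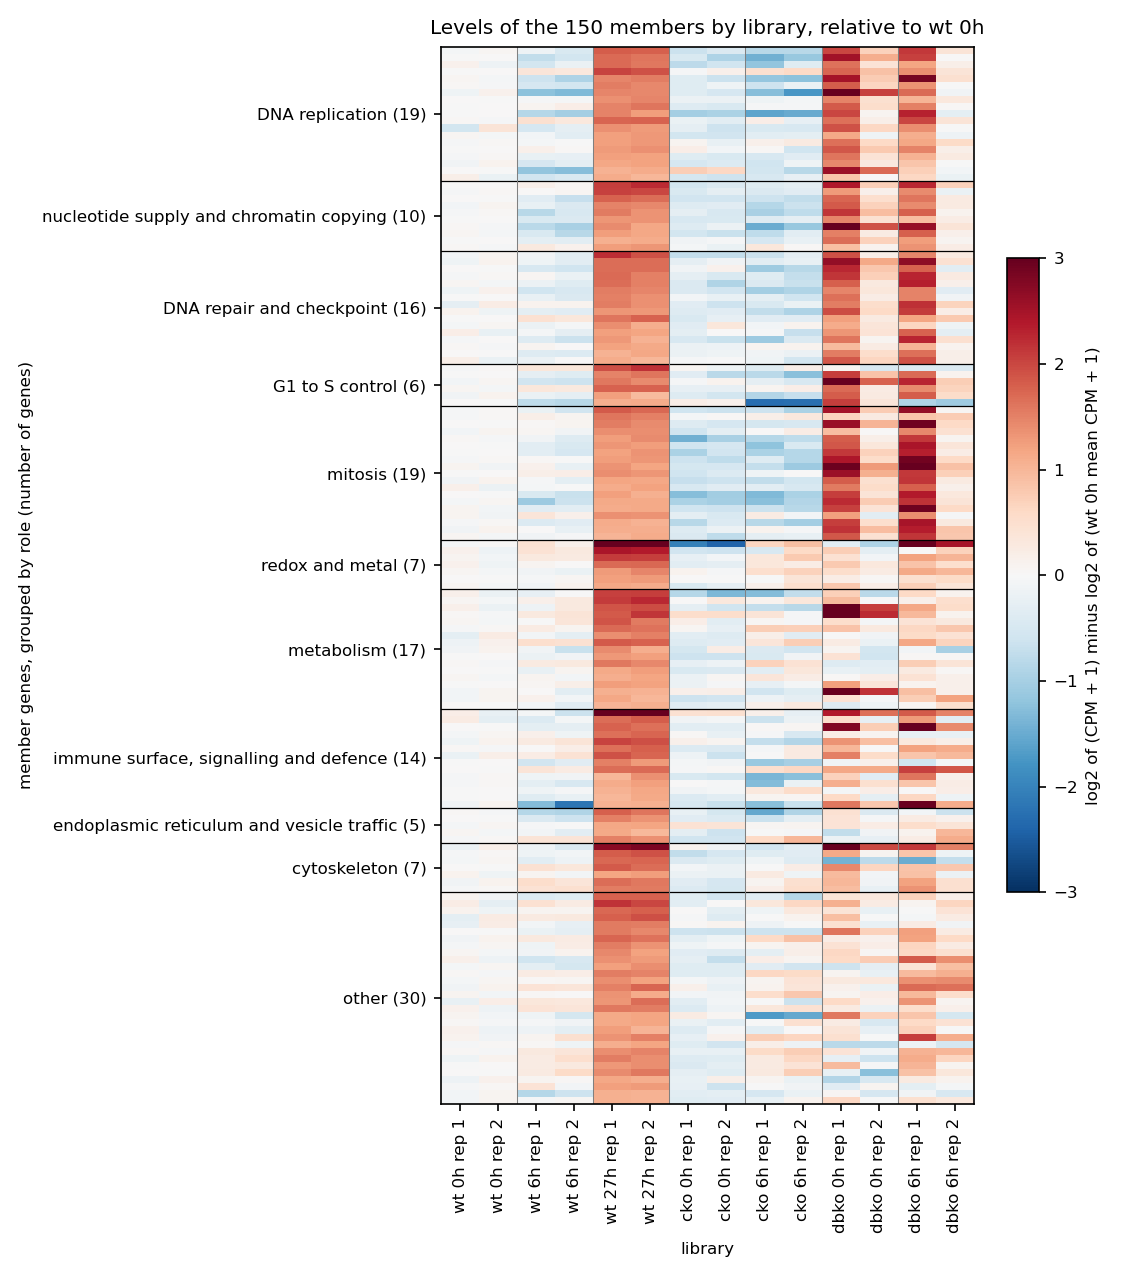
Heat map of the 150 members (rows, grouped by role) in the 14 libraries (columns), coloured by log2 of CPM plus 1 relative to the wt 0h mean and capped at 3 in either direction. All members are red at wt 27h by choice, and most of the 70 cell cycle members are red in dbko replicate 1 at both times and paler in dbko replicate 2.

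The 3 highest scores did not belong to cell cycle genes. Cd244a, a receptor for CD48 best known from NK cells (chr1:171559193-171609746 in GENCODE M21 on GRCm38, as are the gene positions below), had wt levels of 4.52 and 3.10 CPM at 0h, 3.60 and 2.10 at 6h, and 42.0 and 51.8 at 27h. Hmox1, the enzyme that degrades heme (chr8:75093621-75100589), was at 45.0 and 48.0, 64.6 and 51.5, and 519.9 and 522.8 CPM. The replicates of Hmox1 lay closer together than those of Cd244a at 0h and 6h, and the 27h values of both stood clear of the earlier ones. The tubulin Tubb6 followed with 19.6 and 21.2 CPM at 27h, then Rmi2 of the BLM helicase complex, the acyl-CoA thioesterase Acot7, the metallothionein Mt1, and Uhrf1, which guides DNA methylation to newly copied DNA, with scores of 2.04 to 2.06. Cdkn1a, the cyclin-dependent kinase inhibitor p21, was at 17.98 and 19.2 CPM at 0h, 23.8 and 23.7 at 6h and 73.7 and 88.1 at 27h. Tubb5, Tubb6, Tuba1b, Mt1, Ly6a and Lyz2 have near copies, and their counts are uncertain because reads with more than 1 place lie outside the gene counts.

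Several cell cycle members were at their lowest in wt at 6h and at their highest at 27h. Mcm5, a subunit of the replicative helicase (chr8:75109569-75128439), was at 102.7 and 108.9 CPM at 0h, 90.4 and 89.0 at 6h and 248.7 and 246.6 at 27h. Cdc6, which loads that helicase onto origins (chr11:98907801-98923940), was at 8.76 and 10.7, 3.60 and 3.32, and 28.7 and 28.1 CPM. Rrm2, the small subunit of ribonucleotide reductase, was at 25.6 and 24.2, 13.8 and 12.2, and 68.4 and 57.4 CPM. In these genes both 6h libraries lay below both 0h libraries. The proliferation marker Mki67 was at 67.3 and 58.9, 69.2 and 53.5, and 161.5 and 145.7 CPM, and its 0h and 6h libraries overlap. Ccnd2, cyclin D2, was at 167.7 and 166.1, 98.6 and 93.7, and 358.1 and 359.3 CPM.

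How far each process entered the set can be read from lists of its genes. Of 43 genes of S phase and DNA replication, 20 were members, 1 (Mcm6) had passed the 6h limit already, and 22 met both limits with a lower score. Of 24 DNA repair genes 10 were members, among them Brca1, Brca2, Fancd2 and Exo1. Of 25 genes of G2 and mitosis only Cdk1, Bub1, Top2a and Mki67 were members, and 20 others had lower scores. Of 19 NRF2 antioxidant and heme genes, Hmox1 and Prdx1 were members while 8 were up by 6h. Of 30 NF-kB targets, the costimulatory ligand Cd80 was the only member, and 8 were up by 6h. The lists for oxidative phosphorylation, ribosome biogenesis, cholesterol and fatty acid synthesis, hypoxia, interferon response, proteasome, apoptosis and erythroid markers gave 0 members. Of these, 11 of 12 erythroid and 15 of 23 interferon genes were under 10 CPM at 27h and could not be members, whereas 18 of 20 ribosome biogenesis genes had been up by 6h.

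**Figure D2:**
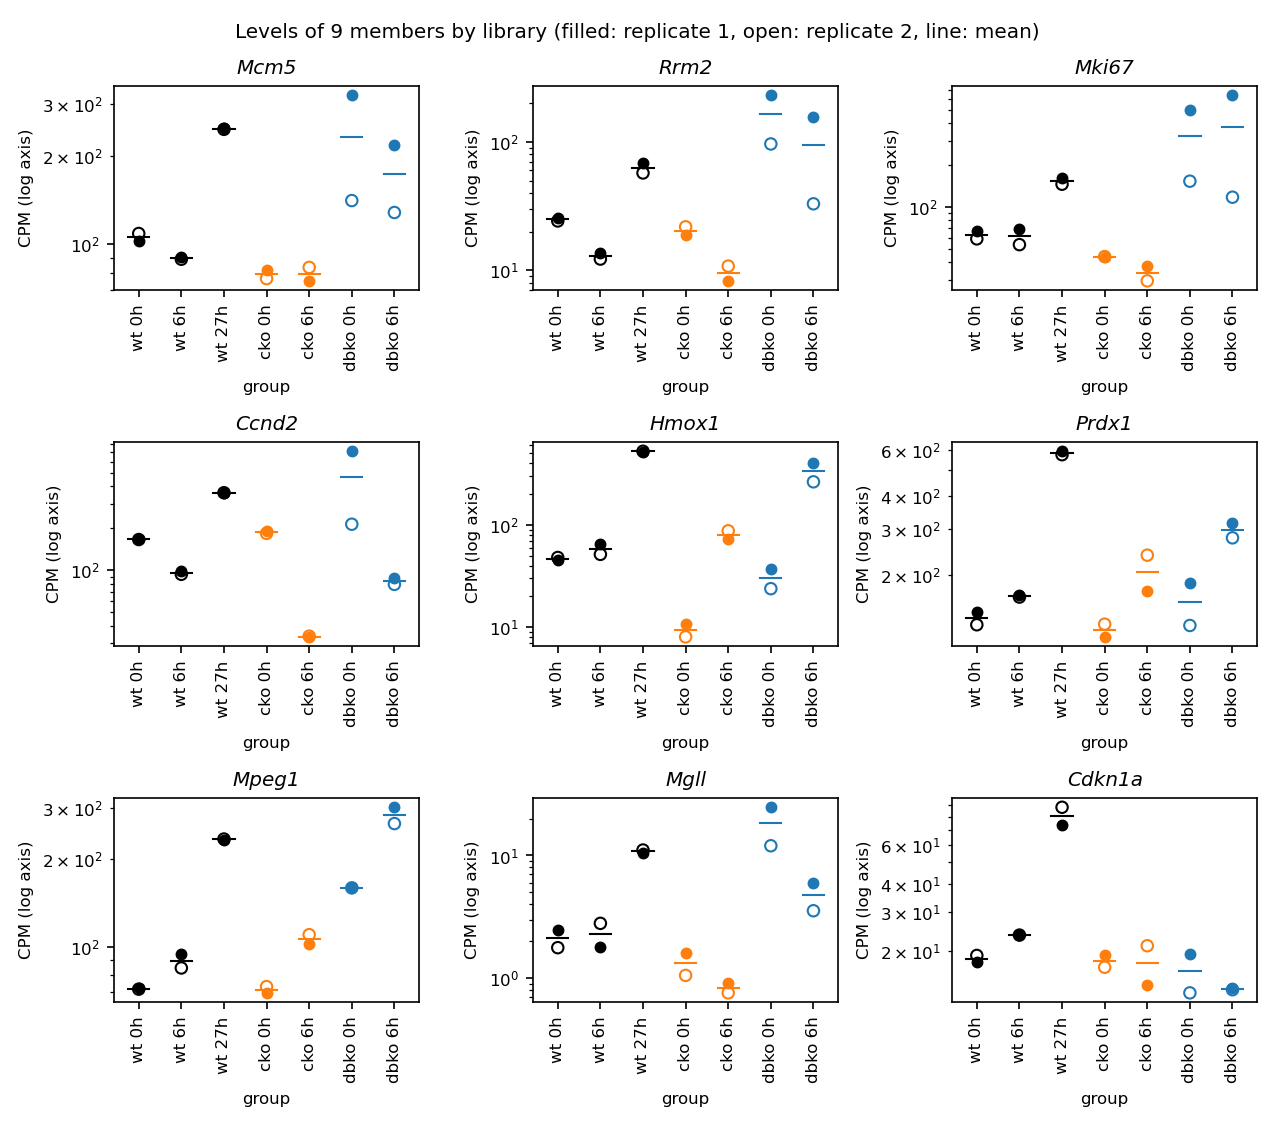
Levels of 9 members in each library in CPM on a log axis, by group, with replicate 1 filled, replicate 2 open and a line at the mean. Both 27h points lie above the earlier wt points in each panel, and the dbko replicates of Mcm5, Rrm2 and Mki67 lie apart while those of Mpeg1 lie together.

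At 6h in the knockouts, the fit on all 14 libraries called smaller shares of these genes than of all genes tested in either direction. Several other settings called more members lower, as given below. In cko, 13 of 150 members were called higher at 6h than at 0h and 8 lower (edgeR, adjusted p under 0.05 over all 12630 genes tested), against 21.8% and 20.1% of all genes tested. In dbko, 20 were called higher and 11 lower, against 19.3% and 20.3%. The median log2 change of the members was -0.13 in both knockouts, and that of all genes 0.05 in cko and 0.03 in dbko. Of the 70 cell cycle members, 0 were called higher in either knockout by edgeR or by DESeq2, and 2 in cko and 3 in dbko were called lower by edgeR. In the higher direction, 0 had an unadjusted edgeR p under 0.05. The unadjusted and DESeq2 counts come without a share of all genes tested.

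The counts of lower members depended on the setting, and no share of all genes tested is given for the other settings. A replicate block within each genotype, chosen after seeing the data, gave 32 lower in cko, 21 of them cell cycle members, and 43 in dbko, 30 of them cell cycle members; deviations of same-numbered libraries at 0h and 6h correlated at 0.48 in dbko and 0.1 in cko. With no filter on low counts 31 and 39 were lower, with 20 and 25 of the cell cycle, and 1 cell cycle member was called higher in dbko. With the compared groups alone there were 25 lower in cko, 17 of the cell cycle, and 4 higher and 6 lower in dbko. Without both dbko libraries numbered 1, 39 of the 70 cell cycle members were called lower in dbko, and without both numbered 2, 24 lower and 1 higher. The cko count of 13 was 6 and 8 without replicates 1 and 2 of cko at 0h, and 5 without cko 6h replicate 2, and the dbko counts were 13 higher and 36 lower without dbko 0h replicate 2 and 63 lower without dbko 6h replicate 1.

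Hmox1 had the largest rise of the members in both knockouts. It was at 10.7 and 8.06 CPM in cko at 0h and at 73.4 and 87.5 at 6h, a log2 fold change of 2.88 ± 0.24 (SE, edgeR adjusted p = 3.91e-06). In dbko it went from 37.1 and 23.8 to 404.9 and 263.1 CPM, a log2 fold change of 3.26 ± 0.23 (edgeR adjusted p = 1.06e-06). In both knockouts every 6h library lay above every 0h library, whereas in wt, where the rule limits the 6h value, the change to 6h was small. At 0h Hmox1 was the 1 member called lower in cko than in wt, by 2.27 ± 0.24 on the log2 scale (edgeR adjusted p = 0.000494), and the cko values at 6h lay above those of wt at 6h. Spleen macrophages express Hmox1 strongly, and the summed macrophage markers were also lower in cko (44.99 and 39.78 CPM) than in wt (189.5 and 193.3) at 0h, but did not rise by 6h in cko (31.5 and 32.47); their part in the Hmox1 levels was not tested.

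Ccnd2 had the largest fall. It was at 191.6 and 183.9 CPM in cko at 0h and at 33.4 and 33.8 at 6h, a log2 fold change of -2.70 ± 0.40 (edgeR adjusted p = 0.000501). In dbko it was at 711.2 and 213.8 CPM at 0h and at 88.7 and 79.3 at 6h, -2.64 ± 0.39 (edgeR adjusted p = 0.000535), with the 0h replicates far apart. Orc1, the largest subunit of the origin recognition complex, fell by 1.79 in cko (edgeR adjusted p = 0.000601) and by 2.12 in dbko (adjusted p = 0.000106) on the log2 scale. All of these falls remained called with any 1 library left out.

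Altogether 15 members were called in both knockouts, each in the same direction, which is 71.4% of the 21 called in cko and 48.4% of the 31 called in dbko. Of all genes tested, 28.9% were called in the same direction in both, 68.8% of those called in cko and 72.8% of those called in dbko. Among the members 10% were called in both, a share that the rule's limit on the wt 6h mean also bears on. Among those higher in both were Hmox1, the peroxiredoxin Prdx1, the pore-forming protein Mpeg1, the acyl-CoA binding protein Dbi, the B cell transcription factor Arid3a, the methyltransferase Eef1akmt1 and the vesicle tether Trappc6a. Among those lower in both were Ccnd2, Orc1 and the phospholipid scramblase Plscr1. Cep19 and Trim32 (higher) and Igsf9 (lower) are also among the 15 and are named after their values were seen. Arid3a, at 24.8 and 25.0 CPM in cko at 0h and 50.0 and 48.5 at 6h, rose by 0.76 ± 0.11 on the log2 scale (edgeR adjusted p = 0.000178), and by 0.91 ± 0.11 in dbko (adjusted p = 4.94e-05). Its replicates were nearly equal in cko, and the call held in both knockouts with any 1 library left out. Of the 15, 5 stayed called in both knockouts with any 1 library left out, namely Hmox1, Ccnd2, Orc1, Plscr1 and Arid3a, and 6, these among them, with the compared groups alone.

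Other shared calls were lost with 1 library left out. In cko, the adjusted p without cko 6h replicate 2 were 0.252 for Prdx1, 0.0629 for Dbi, 0.0685 for Mpeg1, 0.0801 for Cep19 and 0.165 for Trim32. Without cko 0h replicate 1 they were 0.158 for Prdx1, 0.0983 for Mpeg1, 0.0924 for Cep19 and 0.11 for Trim32, and without cko 0h replicate 2, 0.0611 for Prdx1 and 0.0984 for Trim32. In dbko, calls were lost without dbko 0h replicate 2 for Dbi (0.0621), Eef1akmt1 (0.0568), Trappc6a (0.0786) and Cep19 (0.109). They were lost without dbko 0h replicate 1 for Trappc6a (0.0875), Cep19 (0.11) and Igsf9 (0.216). Without dbko 6h replicate 1 they were lost for Dbi (0.0571) and Cep19 (0.314), and without dbko 6h replicate 2 for Trappc6a (0.332) and Igsf9 (0.128). With the compared groups alone, the dbko calls of Prdx1 (0.0767), Mpeg1 (0.0629), Trim32 (0.0635), Dbi (0.116), Eef1akmt1 (0.172), Trappc6a (0.183), Igsf9 (0.241) and Cep19 (0.272) were lost.

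The endoplasmic reticulum genes Hsp90b1 and Sdf2l1 and the cytokine subunit Ebi3 were called lower at 6h in cko. Hsp90b1 was at 749 and 730 CPM at 0h and at 581.1 and 589.9 at 6h, -0.56 ± 0.10 on the log2 scale (edgeR adjusted p = 0.00103). Ebi3 was at 10.9 and 10.4 CPM and then at 4.72 and 5.13, -1.33 ± 0.24 (adjusted p = 0.000687). Both calls held with any 1 library left out, and the times do not overlap. Sdf2l1, a chaperone partner in the same compartment, went from 17.3 and 13.8 to 6.36 and 10.4 CPM (adjusted p = 0.0105), a call lost without cko 0h replicate 1 (0.076) or cko 6h replicate 1 (0.0941). In dbko Pfkm, the muscle form of phosphofructokinase, fell from 36.0 and 20.1 to 7.80 and 3.79 CPM (log2 fold change -2.47 ± 0.32, edgeR adjusted p = 7.94e-05). Over the same interval the summed erythroid markers went from 1006 and 412.3 to 228.8 and 87.61 CPM; their part in this fall was not tested.

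The responses of the knockouts differed for 1 member by test of the difference itself. The dbko response exceeded the cko response for 1 of 150 members (0.667%) and fell short of it for 0 (edgeR), against 0.586% and 0.348% of all genes tested. The share higher is thus near that of all genes. At an unadjusted p under 0.05 there were 7 in each direction, and DESeq2 called 3 and 2. These unadjusted and DESeq2 counts come without a share of all genes tested and cannot be set against one. The member was Atf5, a transcription factor of the stress response, at 4.69 and 3.42 CPM in cko at 0h and 4.54 and 5.64 at 6h, and at 4.61 and 3.44 in dbko at 0h and 15.7 and 15.2 at 6h. The cko libraries overlap between the times and the dbko libraries do not, with a difference of responses of 1.63 ± 0.33 (SE, log2, edgeR adjusted p = 0.0375). The call was lost without replicate 1 or 2 of cko at 0h (adjusted p = 0.239 and 0.0824), replicate 1 or 2 of cko at 6h (0.14 and 0.0672) or dbko 0h replicate 1 (0.0561) and with the compared groups alone (0.359), and the count was 2, 3 and 5 without dbko 6h replicate 1, dbko 0h replicate 2 and dbko 6h replicate 2. The rise of Atf5 within dbko, 1.74 ± 0.23 (adjusted p = 8.49e-05), held throughout.

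**Figure D3:**
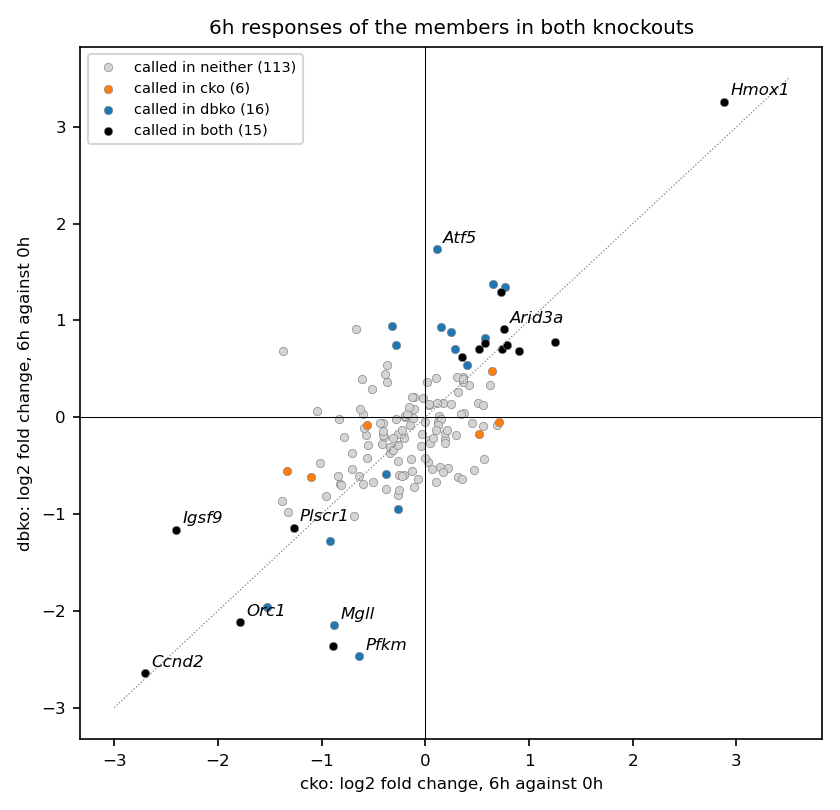
Log2 fold change from 0h to 6h in cko (horizontal) and in dbko (vertical), 1 point per member, coloured by the genotype in which edgeR called it, with the line of equal change dotted. Hmox1 is at the top right with 2.88 and 3.26, Ccnd2 at the bottom left with -2.70 and -2.64, and Atf5 lies above the line.

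The levels in cko beside those in wt are a description, since they use wt libraries that also chose the members. The score favours low wt values at 0h and 6h, while the limit on the 6h mean favours wt values at 0h that are high beside 6h. At 0h the choice is thus not one-sided. Both cko libraries lay below both wt libraries at 0h in 104 of 150 members (69.3%), against 38.1% of all genes tested, and above them in 6 (21.4% of all genes). At 6h, 53 lay below (24.2% of all genes) and 34 above (27.6%). The median log2 difference was -0.35 at 0h and -0.16 at 6h, against -0.02 and 0.02 over all genes. In the edgeR test, 0 members were called higher at 0h and 1, Hmox1, lower (0.918% and 0.578% of all genes tested), with 2 and 8 at an unadjusted p under 0.05 and 1 and 1 by DESeq2. The 1 lower was 54 with the compared groups alone and 9 with no filter on low counts, so the count rests on the setting. No share of all genes tested is given under these settings or for the unadjusted and DESeq2 counts, so none of these can be set against it. At 6h 2 were higher and 1 lower (1.58% and 1.96% of all genes), and the 1 lower was 5 and 12 under the same settings and 4 by DESeq2.

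Those called at 6h were Glrx and Ly6a, higher, and Plscr1, lower in cko. Plscr1 was at 11.4 and 12.3 CPM in wt and at 5.27 and 4.54 in cko, a log2 difference of -1.27 ± 0.18 (edgeR adjusted p = 0.00235), and its groups do not overlap. At 0h it was at 8.38 and 10.1 CPM in wt and at 10.4 and 9.90 in cko. The call of Plscr1 held with any 1 library left out. Those of the glutaredoxin Glrx and of the surface protein Ly6a, in the direction that the choice of low wt values favours, were lost without wt 6h replicate 1, wt 6h replicate 2 or cko 6h replicate 2 and are not read further.

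Loss of RelB in addition to c-Rel went with higher levels of many members at both times. At 0h, 48 of 150 members were called higher and 1 lower in dbko than in cko, against 6.63% and 2.39% of all genes tested. At 6h 64 were called higher and 0 lower, against 8.77% and 4.66%. There were 4 lower at an unadjusted edgeR p under 0.05 and 1 lower by DESeq2, both without a share of all genes tested. Median log2 differences were 1.09 and 1.03, against 0.01 and -0.00 over all genes. Both dbko libraries lay above both cko libraries in 121 members at 0h (80.7%, against 38.2% of all genes) and in 110 at 6h (73.3%, against 30.8%). The 1 gene called lower at 0h was Ttc21b, a gene of cilium transport, whose call was lost without cko 0h replicate 1 (adjusted p = 0.0632), cko 0h replicate 2 (0.291) or dbko 0h replicate 1 (0.262), and with the compared groups alone (0.171).

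Cell cycle members made up most of these calls. Of the 70, 30 were called higher at 0h and 40 at 6h, with median log2 differences of 1.73 and 1.74. Of the 80 others, 18 and 24 were called, with medians of 0.35 and 0.38. Mitosis had the highest median of the roles, 2.22 at 0h with 7 of 19 called and 2.66 at 6h with 17 of 19 called. DNA replication had 12 of 19 called at 0h and 8 at 6h, with medians of 1.47 and 1.20. Among the other roles, immune genes had the highest medians, 0.90 and 1.15, with 6 and 9 of 14 called, and metabolism had 0.34 and 0.25 with 4 of 17 called at each time. Of the whole list of 25 genes of G2 and mitosis, 14 were called higher at 0h and 24 at 6h, so most of that list was high in dbko although only 4 of its genes are members. Of the 43 genes of S phase and DNA replication, 25 and 16 were called higher.

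The excess of cell cycle genes was unequal between the dbko replicates. At 0h 58 of the 70 were more than 2-fold higher in dbko replicate 1 than in replicate 2, with a median fold of 2.41, and at 6h 55 were, with a median of 2.93. Of the 80 other members 11 and 8 were, and of all 12630 genes tested 533 and 700. Within each of the other 5 groups, 0 of the 70 differed 2-fold between replicates. In the fit on all 14 libraries, this dbko split enters the spread used for cko and wt too. Relative to the wt 0h mean, the median cell cycle member was at 1.83 and 0.50 on the log2 scale in dbko replicates 1 and 2 at 0h and at 1.76 and 0.23 at 6h, against 1.38 and 1.34 in wt at 27h.

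Single genes show this split. Mki67 was at 494.7 and 153.2 CPM in dbko at 0h and at 636.4 and 117.5 at 6h, and at 29.4 to 43.9 in the 4 cko libraries. Rrm2 was at 231.6 and 96.6, then 157.3 and 33.0 CPM, and at 18.9 and 21.8, then 8.26 and 10.8 in cko. Cdc6 was at 102.4 and 43.5, then 34.1 and 9.02 CPM, against 7.41 and 6.57, then 3.45 and 2.19. In each of these genes even the lower dbko replicate lay above both cko libraries of its time. The tests gave for Cdc6 a log2 difference of 3.26 ± 0.56 at 0h (edgeR adjusted p = 0.00631) and 2.84 ± 0.61 at 6h (0.0154), and for Rrm2 2.88 ± 0.63 (0.0217) and 3.22 ± 0.66 (0.0138). With the compared groups alone the 6h calls of Cdc6 (0.121) and Rrm2 (0.143) were lost.

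These calls depended on single libraries and on the groups in the fit. No share of all genes tested is given under the other settings that follow. There were 25 members called higher at 0h and 6 at 6h with the compared groups alone, and 97 and 98 with no filter on low counts. With each library of the compared groups left out in turn, 0 of the 30 cell cycle calls at 0h and 0 of the 40 at 6h stayed called in every case, with a highest adjusted p of 0.514 and 0.397. The members called higher at 0h numbered 11 without dbko 0h replicate 1, 101 without dbko 0h replicate 2, and 9 and 6 without replicates 1 and 2 of cko at 0h. At 6h they numbered 16 without dbko 6h replicate 1, and 12 and 19 without replicates 1 and 2 of cko at 6h, and the 0 called lower became 3 without dbko 6h replicate 2. Without both dbko libraries numbered 1, a setting chosen after seeing the data in which the single dbko library left per time borrows its spread from the other groups, 65 members were called higher at 0h, 51 of them cell cycle genes, and 69 at 6h, 44 of them cell cycle genes. Without both numbered 2 these were 112 with 69, and 111 with 68.

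**Figure D4:**
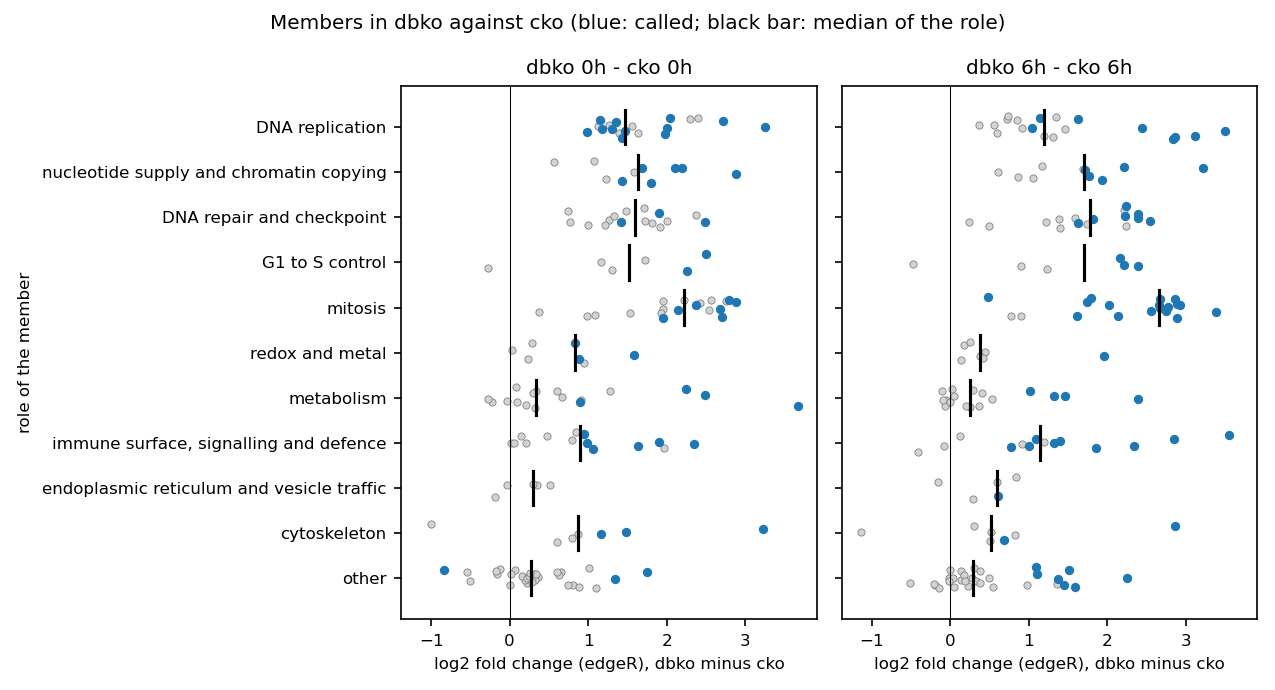
Log2 fold change of each member in dbko against cko at 0h (left) and 6h (right), by role, with called members in blue and a black bar at the median of the role. The medians of the cell cycle roles lie between 1.20 and 2.66, and those of metabolism at 0.34 and 0.25.

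In other roles, 6 members at 0h and 11 at 6h were called higher in dbko than in cko with any 1 library left out. Mpeg1, also called perforin-2, was at 69.6 and 73.1 CPM in cko and 160.5 and 159.5 in dbko at 0h, a log2 difference of 1.06 ± 0.10 (edgeR adjusted p = 0.0001). At 6h it was at 102.6 and 110.2 against 301.8 and 265.3 CPM, 1.33 ± 0.10 (adjusted p = 9.68e-06). The groups do not overlap at either time. Mgll, which hydrolyses monoacylglycerols, was at 1.59 and 1.05 against 24.7 and 12.0 CPM at 0h, 3.67 ± 0.40 (adjusted p = 0.000302), and at 0.908 and 0.757 against 5.92 and 3.54 at 6h. Hmox1 was higher in dbko by 1.59 ± 0.25 at 0h (adjusted p = 0.0023) and by 1.96 ± 0.21 at 6h (adjusted p = 0.000245). Those held at 0h include Mpeg1, Mgll, Hmox1, Tubb6 and Pfkm, and those at 6h are Mpeg1, Mgll, Hmox1, Tubb6, Cd244a, Plscr1, Atf5, Rcbtb2 and Mettl7a1 with Fah and Ccdc88b, the last pair named after their values were seen. The 6h calls of Plscr1 (adjusted p = 0.129), Fah (0.113), Mgll (0.0638), Ccdc88b (0.0601), Mettl7a1 (0.0572) and Atf5 (0.0527) were lost with the compared groups alone.

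Several of these genes are also expressed by the cell types whose markers were high in dbko. Of 12 erythroid genes 12 were called higher in dbko than in cko at 0h, and of 17 tested macrophage and monocyte genes 11 were at 0h and 15 at 6h. The lysozyme Lyz2, itself on that macrophage list, was at 1.91 and 3.37 CPM in cko and 52.8 and 13.9 in dbko at 6h, so its dbko replicates were split in the same order as the summed macrophage markers (349.4 and 115.1). Its call at 6h (3.55 ± 0.61, edgeR adjusted p = 0.0054) was lost without cko 6h replicate 1 (0.0657) and with the compared groups alone (0.11). Pfkm at 0h, at 36.0 and 20.1 CPM in dbko, was split in the order of the erythroid markers. The part of these cells in the dbko levels was not tested. At wt 27h the erythroid markers Hba-a1 and Alas2 were at 0 in both libraries and the 6 summed to 1.238 and 0.9833 CPM, and the macrophage markers summed to 92.5 and 100.6 CPM, below the 189.5 and 193.3 of wt at 0h and above the 44.17 and 42.86 of wt at 6h. Lyz2 in wt went from 5.461 and 6.367 CPM at 0h to 1.801 and 0.5238 at 6h, and reached 13.24 and 13.59 CPM at 27h. The macrophage markers did not rise alike from 6h to 27h in wt. Adgre1 went from 13.93 and 15.28 CPM to 32.58 and 34.69, and Cd5l from 1.801 and 1.048 to 12.29 and 12.34. Csf1r, at 2.275 and 1.222 and then 2.477 and 1.877 CPM, overlapped between the times. Spic went from 3.413 and 3.23 to 2.858 and 2.145 CPM. A part of macrophages in the wt rise from 6h to 27h was not tested.

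**Figure D5:**
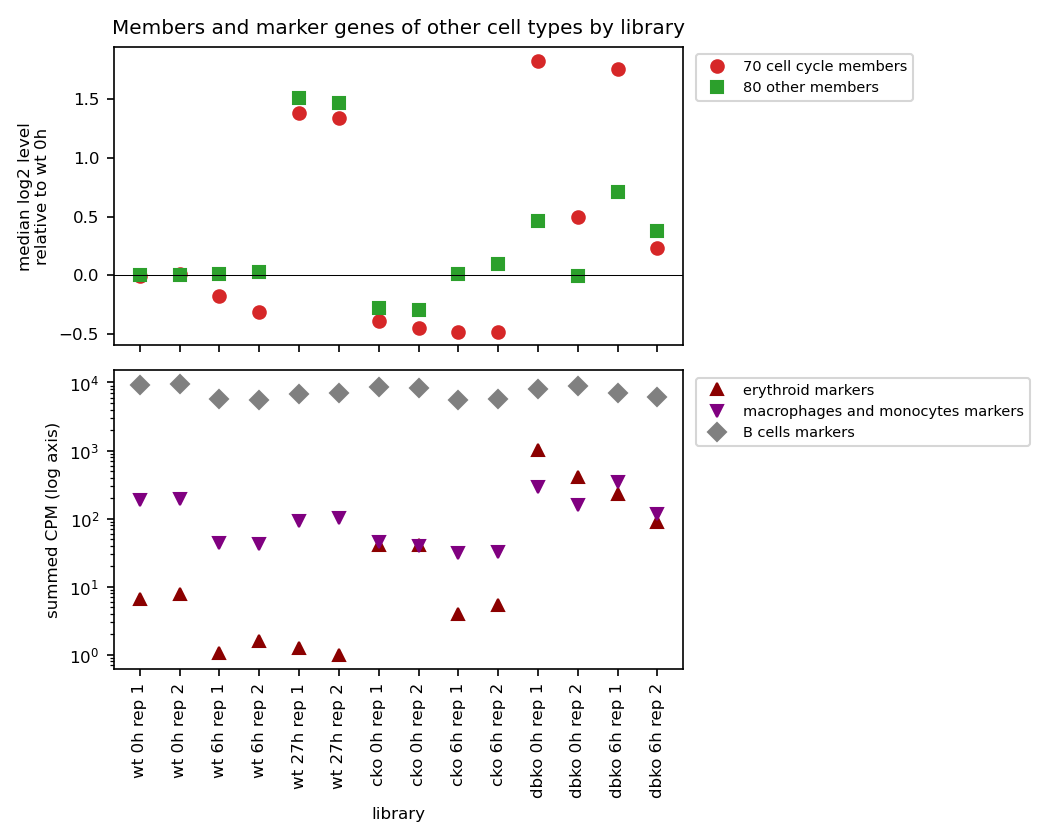
Upper panel: median log2 level of the 70 cell cycle members and of the 80 others in each library, relative to wt 0h. Lower panel: summed CPM of erythroid, macrophage and B cell markers on a log axis. In dbko, cell cycle members and the erythroid and macrophage markers are higher in replicate 1. Over all 14 libraries, B cell markers stay between 5591 and 9506 CPM.

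Set against wt, dbko is compared with libraries that also chose the members, so these counts are a description. Low wt values at 0h and 6h raise the score, which favours calls of higher. At 0h the limit on the 6h mean works the other way, since it favours wt values at 0h that are high beside 6h. At 0h 26 members were called higher and 3 lower in dbko (7.1% and 4.55% of all genes tested), and at 6h 59 and 2 (15.2% and 11.5%). Both dbko libraries lay above both wt libraries in 96 members at 0h and 113 at 6h, against 33.6% and 40.8% of all genes. Orc1 was at 6.97 and 6.90 CPM in wt and 45.9 and 24.6 in dbko at 0h. With the compared groups alone 9 and 15 were called higher, and with no filter on low counts 82 and 93, each without a share of all genes. The count of 26 was 10 without dbko 0h replicate 1, 83 without dbko 0h replicate 2 and 8 without either wt 0h replicate. The count of 59 was 23 without dbko 6h replicate 1, 100 without dbko 6h replicate 2, and 16 and 15 without wt 6h replicates 1 and 2.

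At 6h, lower levels in dbko than in wt run against the favouring of low wt values. For 0h the choice is not one-sided, so lower calls there cannot be said to run against it. Cdkn1a at 6h was at 23.8 and 23.7 CPM in wt and at 13.7 and 13.5 in dbko, a log2 difference of -0.89 ± 0.20 (edgeR adjusted p = 0.00704). This call held with any 1 library left out, and the dbko replicates of this inhibitor lay close together at 6h, as did those of Ccnd2 (88.7 and 79.3), whereas 55 of the 70 cell cycle members were more than 2-fold apart. Kif19a, a kinesin of cilia, had 6h levels of 4.08 and 4.71 CPM in wt and 1.26 and 2.87 in dbko, and was called lower at 0h (-1.45 ± 0.37, adjusted p = 0.0233) and 6h (-1.16 ± 0.37, 0.0346). It was lost without dbko 0h replicate 1 (0.19), wt 0h replicates 1 and 2 (0.107 and 0.135), dbko 6h replicate 1 (0.201) and wt 6h replicates 1 and 2 (0.0912 and 0.172), and with the compared groups alone at 0h (0.125) and 6h (0.158). The others at 0h were Ttc21b and the zinc finger gene Zfp287, and the 3 calls at 0h numbered 0 without either wt 0h replicate or with the compared groups alone. Without dbko 0h replicate 1 the adjusted p was 0.246 for Ttc21b and 0.088 for Zfp287.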

How the data were processed

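Poly-dT primed RNA libraries of splenic follicular B cells were sequenced by the authors. The deposited values are raw counts of reads per gene, whole numbers with no normalization, per the file contents and the labels; CASAVA 1.8.2 is named per the submitters' processing notes, with aligner, counter, annotation, build and strand setting not given in the sources used here, so genes that overlap on opposite strands are uncertain. Tallies outside genes were dropped: 5.21 to 11.46% of reads per library lay in no feature, 38.77 to 49.85% were not unique and 0.41 to 0.49% ambiguous. Of 39179 gene IDs 37693 matched GENCODE M21 (GRCm38), with 99.56% of the counts.

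Levels are CPM on a library's gene total. Differences come from edgeR 4.0.16 (R 4.3.3, limma 3.58.1): TMM, filterByExpr by group, a robust quasi-likelihood fit with 1 mean per group on all 14 libraries (7 residual degrees of freedom, biological coefficient of variation 0.144), two-sided tests and Benjamini-Hochberg adjustment over 12630 genes. Genes under 0.05 after adjustment were called. Log2 fold changes are on the TMM scale, and ± is the SE. The pipeline was tested on simulated data with the same spread in all genes and groups, so that test does not cover the split of the dbko replicates. DESeq2 1.42.0, its size factors, no filter on low counts, the compared groups alone, a replicate block and leaving out each library were alternatives, and the settings on dbko libraries by number and on a block within each genotype were added after seeing the data. Python 3.11.15, pandas 2.3.3 and Matplotlib 3.10.9 were used for the rest.

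The members, the gene lists and the tests were chosen with earlier results of these data known. Named are the 20 highest scores, the genes at the boundary, up to 5 calls with the smallest adjusted p per comparison and direction, members on the 34 gene lists, the 5 highest at wt 27h, and Rel and Relb. Results of some named genes are not reported here. Replicate 1 is lane 7 and replicate 2 lane 8 in every group.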

Additional observations from a re-analysis of the deposited data

Results flagged for a closer look

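The test of the difference between the 6h responses of dbko and cko picked out 1 of the 150 members, counted as 1 higher. It was Atf5, whose response in dbko exceeded that in cko by 1.63 ± 0.33 (SE, log2, edgeR adjusted p = 0.0375), and whose 2 dbko libraries were both higher at 6h. The call was lost with any of 5 libraries left out, as given with the result. The 1 member is 0.667% of the 150, near the 0.586% of all genes tested that were called in this direction.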

How the results depend on the processing

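Numbers of members are given as higher then lower where both are printed. No share of all genes tested is given for these settings, so the counts cannot be set against one. With no filter on low counts, calls in cko at 6h against 0h were 31 lower, in dbko 39 lower, in the difference of responses 8 and 3, in dbko against cko 97 and 2 at 0h and 98 and 2 at 6h, in cko against wt 2 and 9 at 0h and 4 and 12 at 6h, and in dbko against wt 82 and 6 at 0h and 93 higher at 6h. With the compared groups alone, in the same order, they were 25 lower, 4 and 6, 0 higher, 25 and 0, 6 higher, 5 and 54, 1 and 5, 9 and 0, and 15 and 1. DESeq2 gave 13 lower in cko, 3 and 2 for the difference of responses, 76 higher for dbko against cko at 0h and 1 lower at 6h, 1 higher for cko against wt at 0h and 4 lower at 6h, and 49 higher for dbko against wt at 0h. DESeq2 size factors in edgeR gave 2 higher for the difference of responses and 1 higher for cko against wt at 0h and at 6h. That scaling shifted the median of all genes by no more than 0.05 on the log2 scale.

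Of the 170 calls of named genes, a replicate block lost 0, DESeq2 and its size factors 3 each, no filter 4 and the compared groups alone 99, and leaving out 1 library lost from 3 of 96 (without dbko 6h replicate 2) to 27 of 40 (without wt 6h replicate 2) of the calls it touches. The block gave 2 higher for the difference of responses, 2 lower for dbko against cko at 6h and 2 lower for cko against wt at 6h. The numbers were not taken as pairs, because deviations from group means correlated above 0.1 in 4 of 21 pairs of groups, from -0.17 to 0.48, the highest between dbko at 0h and at 6h. A replicate block within each genotype gave 32 lower in cko and 43 lower in dbko at 6h against 0h, and 3 and 4 for the difference of responses. Without both dbko libraries numbered 1 there were 48 lower in dbko, 4 and 4 for the difference, and 48 and 6 for dbko against wt at 0h. Without both numbered 2 there were 42 lower in dbko, 15 and 20 for the difference, 112 and 2 at 0h and 111 and 3 at 6h for dbko against cko, and 102 and 8 at 0h and 120 higher at 6h for dbko against wt.

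With 1 library left out at a time, the counts ranged from 5 to 13 higher and 6 to 9 lower in cko at 6h against 0h, from 13 to 24 and 9 to 63 in dbko, and from 0 to 5 and 0 to 6 for the difference of responses. They ranged from 6 to 101 and 0 to 2 for dbko against cko at 0h, from 12 to 94 and 0 to 3 at 6h, from 0 to 2 higher for cko against wt at 6h, from 8 to 83 and 0 to 4 for dbko against wt at 0h, and from 15 to 100 and 1 to 2 at 6h. The cause of these shifts was not tested. Of the 150 members, 109 to 145 stayed members under other limits, pseudocounts and scalings of the rule, and 135 to 141 without 1 wt library. With 2 libraries per group and levels from 10.3 CPM at wt 27h, small differences were not detectable.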
